A study of Mus musculus with 2 samples.

Results

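The cells described here are 1016 secretory luminal epithelial cells in a primary culture of inguinal white adipose tissue (iWAT), of 29744 iWAT cells that passed the cell filter and 58598 barcodes in the series. They were chosen by their own measured counts and not by clustering. A member held at least 1 Epcam UMI, at least 10 UMIs of Krt8 and Krt18 together, no Pdgfra UMI, fewer than 3 Krt5 UMIs, at most 1 UMI of Foxa1, Tspan1 and Padi2 together, and at least 5 UMIs of Wfdc18 and Lcn2 together. A UMI (unique molecular identifier) marks 1 captured RNA molecule. Members made up 3.42% of the kept iWAT cells (exact binomial 95% interval 3.21 to 3.63%) and 16.0% of the 6333 kept cells with an Epcam UMI.

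Wild-type C57BL/6N mice, 8 to 12 weeks old per the labels, gave pooled stromal vascular cells of iWAT and of interscapular brown adipose tissue (iBAT), which were grown in high-glucose medium to 80% confluency. The labels name 4 tagged treatments per depot, untreated, FGF1, FGF2 and FGF8, with 5.5 nM FGF for 48 h, merged into 1 single-cell library. The files used here give no tag for a cell, so each depot is 1 sample that mixes 4 treatments. No treatments could be compared and no test could be run, and all intervals cover counting error only, not the spread between cultures or animals.

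The inguinal fat pad of mice can hold mammary epithelium, a branched tube embedded in fat. Its inner luminal cells carry the keratins Krt8 and Krt18 and the adhesion molecule Epcam, and its outer basal myoepithelial cells carry Krt5 and Krt14. Luminal cells are of a hormone-sensing kind, which uses Foxa1 with the estrogen and progesterone receptors, and of a secretory kind, whose progenitors are known for Elf5, Kit and Csn3 and give rise to milk-producing alveolar cells. Wfdc18 and Wfdc2 encode small secreted proteins with the fold of whey acidic protein, and Lcn2 encodes lipocalin 2, which binds the iron carriers of bacteria. The labels do not give the sex of the mice.

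The threshold on Wfdc18 and Lcn2 separates the members from the nearest other luminal cells, so the 250 bases before the start of each gene's canonical transcript are shown. Wfdc18 lies at chr11:83599841-83602174 on the plus strand and Lcn2 at chr2:32274645-32278264 on the minus strand of GRCm39. The Lcn2 window lies inside the annotated span of the gene, since other annotated transcripts start further upstream. Both are written 5′ to 3′ on the strand of the gene, and capitals mark matches to 5 motifs searched on both strands: GGGNNNNNCC for NF-kappaB, TTNNGNAA for C/EBP proteins, TTCNNNGAA for STAT proteins, ACAAAG for SOX proteins, and the TATA box as TATAAA.
Wfdc18, chr11:83599591-83599840: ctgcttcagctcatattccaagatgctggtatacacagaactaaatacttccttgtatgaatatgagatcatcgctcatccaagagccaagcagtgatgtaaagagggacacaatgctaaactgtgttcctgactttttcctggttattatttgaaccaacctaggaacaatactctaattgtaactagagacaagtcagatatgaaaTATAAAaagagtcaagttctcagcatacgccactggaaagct
Lcn2, chr2:32277810-32278059: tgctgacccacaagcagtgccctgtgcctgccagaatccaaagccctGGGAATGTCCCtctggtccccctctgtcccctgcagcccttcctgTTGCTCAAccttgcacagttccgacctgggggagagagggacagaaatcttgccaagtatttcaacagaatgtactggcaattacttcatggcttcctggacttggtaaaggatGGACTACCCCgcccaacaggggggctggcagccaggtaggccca
The Wfdc18 window held a TATAAA 42 to 37 bases before the start, a motif found in 11.9% of 21751 windows of the same length. The Lcn2 window held GGGNNNNNCC on both strands in overlapping matches 203 to 193 bases before the start. A further match, on the opposite strand alone, lay 44 to 35 bases before the start. The window also held TTNNGNAA, on the opposite strand alone, 158 to 151 bases before the start. GGGNNNNNCC was found in 47.8% of all windows and TTNNGNAA in 36.9%. TTCNNNGAA, found in 7.69%, and ACAAAG, found in 15.9%, matched neither window.

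The Wfdc18 and Lcn2 cutoff and the keratin cutoff fell within continuous ranges, so in these genes the members are a range of cells. Few cells lay at the Krt5 cutoff, where 1 cell held 3 UMIs and met the other conditions, or at the Epcam cutoff, where 12 cells held none. The conditions left 6333 cells with Epcam, 2739 with the keratins, 2408 without Pdgfra, 2377 under the Krt5 limit, 2097 under the limit on Foxa1, Tspan1 and Padi2, and 1016 with Wfdc18 and Lcn2. Of the 2097 cells before the last condition, 60 held 3 and 45 held 4 UMIs of Wfdc18 and Lcn2 and stayed outside, while 50 held 5 and 37 held 6 and were members. The 87 members with 5 or 6 UMIs stood at 389 CPM of Wfdc2, 445 of Csn3 and 103 of Sox10, and the 105 cells with 3 or 4 at 349.7, 756 and 82.7, where CPM is the UMIs of a gene per 1000000 UMIs summed over a set. The keratin threshold kept out 39 cells with 9 UMIs and took in 49 with 10, and the Pdgfra condition kept out 109 cells for a single UMI. Members held a median of 12554 UMIs (5855 to 40670) and 3872 genes, against 16370 UMIs in the other kept cells, and a median of 9.55% mitochondrial UMIs against 5.93%. Scrublet called 27 members (2.66%) doublets, and these were kept.

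The members were set beside the other 28728 kept cells, the other 5317 Epcam-positive cells, and their closest neighbours. Of the other Epcam-positive cells, 1810 (34.0%) held a Pdgfra UMI and 1823 (34.3%) a single Epcam UMI, so they are a mixture. Wfdc18/Lcn2-low cells (1081) met all conditions except the last, and low-keratin cells (789) met all except the keratin threshold. Foxa1-set cells (280) met the Epcam, keratin, Pdgfra and Krt5 conditions but held at least 2 UMIs of Foxa1, Tspan1 and Padi2. Krt5 cells (163) held at least 3 Krt5 UMIs and no Pdgfra, and stromal cells (15650) held Pdgfra and no Epcam UMI. Levels in CPM are compared between sets for the same gene.

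Among the sets compared, Wfdc18 had its highest levels in the members and the low-keratin cells. It stood at 2832 CPM in members, 2818 in low-keratin cells, 29.4 in Wfdc18/Lcn2-low cells, 181 in Foxa1-set cells, 307 in Krt5 cells and 5.86 in stromal cells. A further 140 cells, which failed only the Pdgfra condition, held 5.69% of all Wfdc18 UMIs of the kept cells. Single members held 0 to 256 Wfdc18 UMIs with a median of 21, and 92.0% held at least 1. Lcn2 followed another order, at 887 CPM in members, 2334 in low-keratin cells, 21.1 in Wfdc18/Lcn2-low cells, 199.9 in Foxa1-set cells, 952 in Krt5 cells and 2.75 in stromal cells. The Foxa1-set levels came from few cells, since their median and upper quartile were 0 UMIs for both genes. Members held 0 to 212 Lcn2 UMIs with a median of 3, and 66.6% held at least 1. Both genes chose the members, so these values only describe the choice.

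Wfdc2 was not in the rule, but it was among the marker genes picked for these cells. Among the sets compared it had its highest level in the members. It stood at 432 CPM (421 to 444) in members, 374 in low-keratin cells, 285 in Wfdc18/Lcn2-low cells, 239.7 in Foxa1-set cells, 49.4 in Krt5 cells and 1.57 in stromal cells. No neighbours in this order had overlapping intervals, but these cover counting error only and are narrow for UMIs summed over a set. With every cell thinned to 5000 UMIs, 79.7% of members (77.1 to 82.2%) and 1.15% of 4000 stromal cells (0.843 to 1.53%) held a Wfdc2 UMI, and unthinned these were 94.4% and 2.61%. The stromal cells, which had a median of 18124 UMIs, are a type that should lack the gene.

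**Figure D1:**
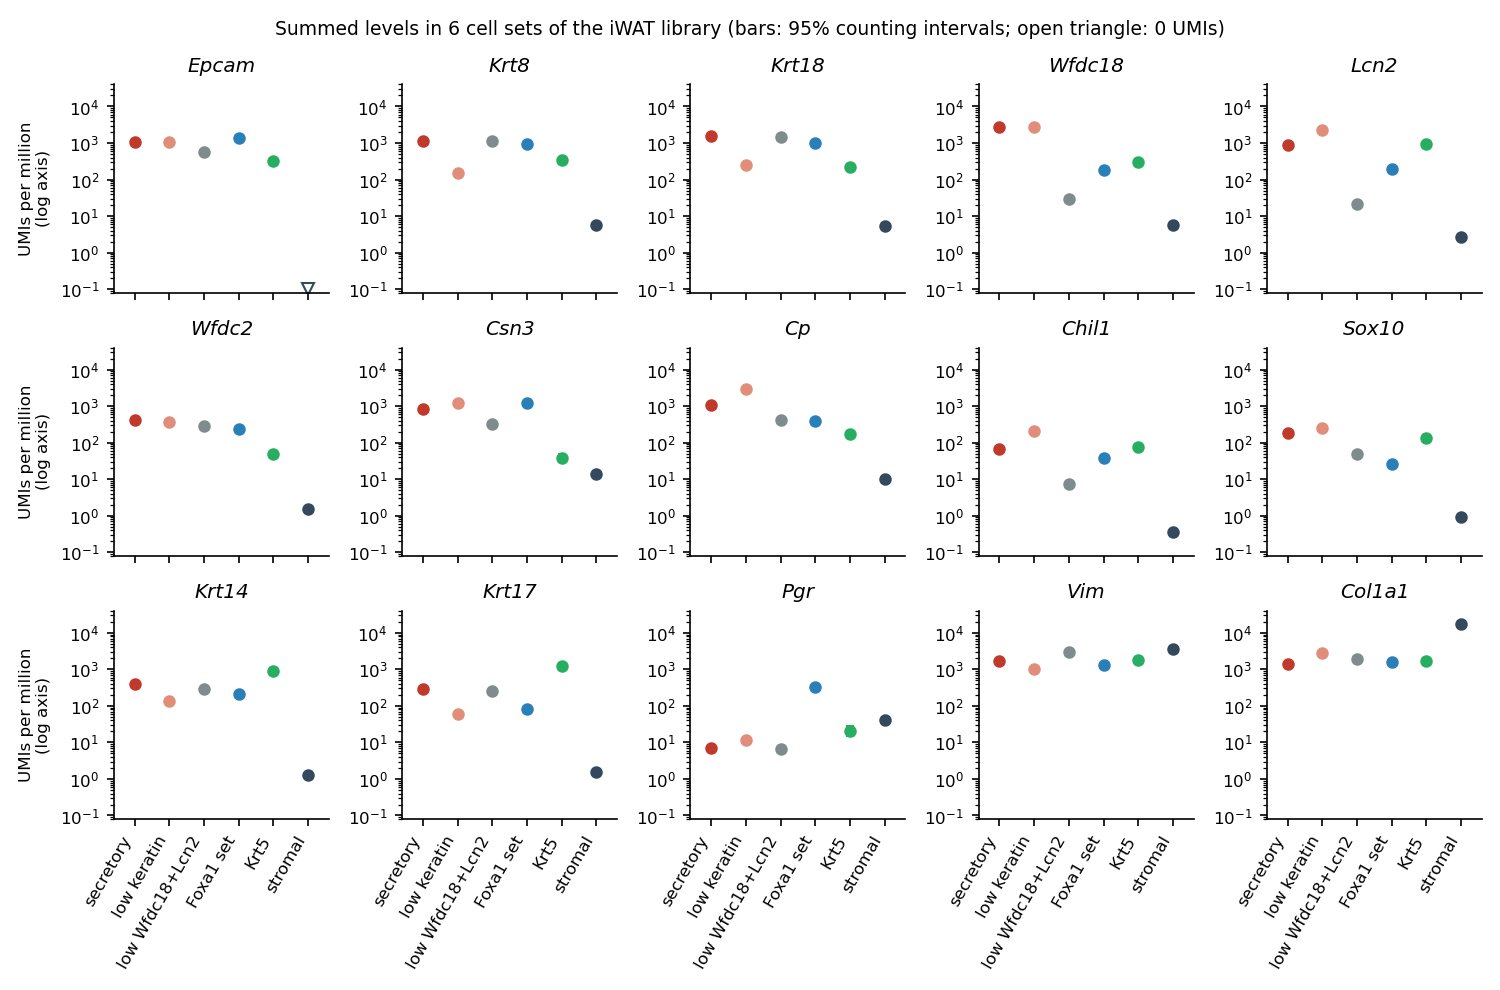
Levels of the drawn genes in sets of iWAT cells, in CPM on a log axis, with 95% counting intervals. Wfdc18 and Lcn2 fall to 29.4 and 21.1 in the Wfdc18/Lcn2-low cells, where Krt8 is at 1135, while Krt8 falls to 148 in the low-keratin cells, where Wfdc18 is at 2818.

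Against the other kept iWAT cells, genes of adhesion, keratin filaments and secreted defence were higher and stromal genes lower. Of 3959 genes at 50 CPM or more in either set, 167 (4.22%) were at least 4-fold higher in members and 207 (5.23%) at least 4-fold lower, with a median log2 ratio of 0.01 over all. Since every gene of these cells follows their choice on epithelial transcripts and against Pdgfra, the ratios describe the cells chosen and carry no test. In this comparison and the later ones, a gene under 50 CPM in the cells set against the members entered only through the members. Such a gene had to be higher in the members. A gene under 50 CPM in the members entered only through the other set and had to be lower in the members. Counts of higher or lower genes per list, with rule genes among them, are therefore descriptions too.

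The leading genes by ratio were Wfdc18 at 2832 against 73.5 CPM (log2 ratio 5.27), Cytip at 75.8 against 4.02 (4.24), Krt18 at 1508 against 82.9 (4.18) and Sox10, a factor of luminal progenitors and of glia, at 184 against 10.3 (4.17). Among the next were the sphingosine 1-phosphate transporter Spns2, the peptide transporter Slc15a2, the serpin Serpinb5 and Rab25, a small GTPase of epithelial recycling. Rab25 stood at 51.6 against 3.12 CPM and Serpinb5 at 136 against 8.16. Pdgfb, a ligand for the receptors of stromal and mural cells, was at 305 against 18.7 CPM.

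Of 14 junction and polarity genes compared, 13 were at least 4-fold higher, with a median log2 ratio of 3.59, Epcam among them through the rule. E-cadherin (Cdh1) stood at 363 against 25.4 CPM, the tight-junction claudins Cldn4 and Cldn7 at 492 against 40.8 and 178 against 11.2, and the desmosomal cadherin Dsg2 at 113 against 8.55. Pkp2, a desmosomal plaque protein, was the gene under 4-fold, at 52.2 against 19.8 CPM. Of 8 epithelial transcription and splicing factors, 6 were at least 4-fold higher (median 2.46). Among them, the splicing factor Esrp1 stood at 97.8 against 8.77 CPM and the luminal factor Gata3 at 94.7 against 18.2.

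The keratins held both luminal and basal members of the family. Of 6 compared, 5 were at least 4-fold higher (median 3.96). Krt8 and Krt18 were in the rule, and Krt7, of simple epithelium, stood at 587 against 40.2 CPM. Krt14 and Krt17, usually counted as basal, stood at 394 and 297 CPM in members, 883 and 1205 in Krt5 cells, and 1.25 and 1.53 in stromal cells. Thinned, 75.5% of members held a Krt14 UMI and 54.8% a Krt17 UMI, against 0.625% and 0.5% of stromal cells. Krt19, a luminal keratin, was at 114 CPM in members and 1041 in Foxa1-set cells. For Krt7, 20.4% of the 31-letter words in the last 500 bases of the transcript occur in another gene, so its reads may be shared.

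The contractile genes of basal cells stayed well below the Krt5 cells. Of 10 basal genes compared, 5 were at least 4-fold higher than in the other kept cells (Krt14, Krt17, Itgb4, Jag1 and Lama3) and 1 lower (Snai2), with a median log2 ratio of 1.93. Smooth-muscle actin (Acta2) stood at 1054 CPM in members against 6486 in Krt5 cells, the actin-binding protein Tagln at 492 against 3900.3, and myosin light chain kinase (Mylk) at 5.75 against 581. Trp63, the defining factor of basal cells, had 30 UMIs over all members. Krt5, which the rule limits, had 5 UMIs in 3 members.

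The name secretory luminal was only partly matched by markers outside the rule. Of 20 milk and lactation genes, 7 stood at 10 CPM or more in members and 5 had 0 UMIs. Csn3, the gene of kappa-casein, stood at 843 CPM in members, 1226 in low-keratin cells, 327 in Wfdc18/Lcn2-low cells, 1192 in Foxa1-set cells, 38.9 in Krt5 cells and 13.5 in stromal cells. Thinned, 72.7% of members and 59.3% of Foxa1-set cells held a Csn3 UMI, and the unthinned medians were 5 and 3 UMIs, so shares and medians did not follow the order of the summed levels. The genes at 0 were milk proteins: Csn2, Csn1s2a, Wap, Lalba and Glycam1 had no UMI among the 13572980 UMIs of the members, and 3 UMIs, the limit that a count of 0 allows, come to 0.221 CPM. Of the defining luminal progenitor genes, Elf5 stood at 3.76 CPM and Kit at 1.18, and after thinning 1.57% and 0.492% of members held a UMI. Of 6 luminal progenitor genes compared, 3 were at least 4-fold higher (Aldh1a3, Csn3 and Sox10; median 1.81), and of 4 milk and lactation genes 1 was higher (Csn3) and 1 lower (Spp1; median 0.41).

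Of the hormone-sensing list, which includes the genes that the rule limits, the 15 genes summed to 1125 CPM in members, 3157 in Foxa1-set cells and 278 in the other kept cells. The progesterone receptor Pgr stood at 6.85 CPM in members against 329 in Foxa1-set cells, the prolactin receptor Prlr at 8.77 against 197, the EGF receptor ligand Areg at 15.5 against 223, and the estrogen receptor Esr1 at 4.57 against 29.0. Cited4, a transcriptional co-regulator, went the other way, at 26.9 against 5.22 CPM. Against the other kept cells, 2 genes reached 50 CPM in either set, Ly6a and Cldn3, and both were at least 4-fold higher (median 2.96). Ly6a shares 61.9% of its terminal words with another gene and is uncertain. It made up a large part of the list sums, at 874 CPM in members and 1315.5 in Foxa1-set cells.

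Of 21 antimicrobial and acute-phase genes measured, 5 reached 50 CPM in either set, Wfdc18 and Lcn2 through the rule and Wfdc2, Slpi and Chil1 through their level in the members, so that a higher level there (5 of 5 at least 4-fold, median 3.87) was largely fixed by the choice. The protease inhibitor Slpi stood at 122 against 16.1 CPM and the chitinase-like protein Chil1 at 68.7 against 6.01. Saa1, Reg3g and S100a9, other defence genes of barrier epithelium, had 0 UMIs in the members. Clusterin (Clu), a secreted chaperone, stood at 4882 CPM against 348, and ceruloplasmin (Cp), a copper-carrying enzyme of plasma, at 1097 against 105.

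Of 8 chemokine and cytokine genes compared, 4 were at least 4-fold lower (Ccl2, Ccl7, Il6 and Csf1) and 1 higher (Cxcl16, 74.9 against 11.4 CPM), with a median log2 ratio of -2.33. Of the lower genes, Ccl2, Ccl7 and Il6 were under 50 CPM in the members and could only be lower. Ccl2, which draws monocytes, stood at 29.0 against 322 CPM, and Csf1, the growth factor of macrophages, at 216 against 1425.

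The basement membrane list divided between epithelial and stromal chains. Of 14 compared, 8 were at least 4-fold higher and 4 lower (median 2.34). Among the higher ones, the epithelial laminin chain Lama3 stood at 51.9 against 7.23 CPM and Lamb3 at 70.4 against 9.42. The integrin chains Itga3, Itgb4 and Itgb6 were higher as well. The collagen IV chains Col4a1 (125 against 914 CPM) and Col4a2, the laminin chain Lama4 and nidogen (Nid1) were lower.

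**Figure D2:**
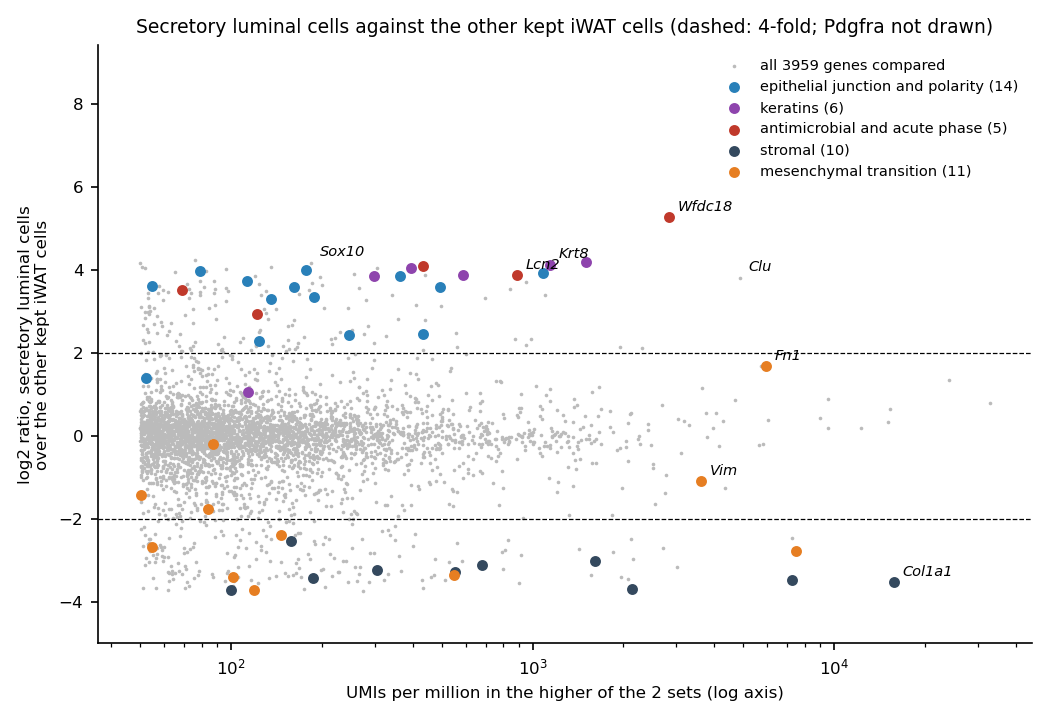
Log2 ratio of the secretory luminal cells over the other kept iWAT cells against level in CPM on a log axis, with 3959 genes compared. Wfdc18 has the highest ratio (5.27), Pkp2 of the junction genes lies under the 4-fold line (52.2 against 19.8 CPM), and the stromal genes lie on the lower side.

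Part of the mesenchymal list was lower. Of 11 genes of mesenchymal transition, 6 were at least 4-fold lower (Zeb2, Snai2, Twist1, Twist2, Prrx1 and Sparc) and 0 higher, with a median of -2.40. The other 5 were Vim, Zeb1, Snai1, Cdh2 and Fn1. Of the 6 lower genes, Zeb2, Snai2, Twist1 and Twist2 were under 50 CPM in the members and could only be lower. N-cadherin (Cdh2) stood at 76.3 CPM in members against 86.8 in the other kept cells. Fibronectin (Fn1) stood at 5942 CPM in members, 5646 in Wfdc18/Lcn2-low cells, 5181 in Foxa1-set cells, 2647 in Krt5 cells and 1496 in stromal cells. Vimentin (Vim) stood at 1699 CPM in members, 3027 in Wfdc18/Lcn2-low cells and 3711 in stromal cells.

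Stromal transcripts were present in the members at low levels. All 11 stromal genes compared were at least 4-fold lower (median -3.42), Pdgfra through the rule. Relative to the stromal cells, the 11 listed genes other than Pdgfra stood at 6.27% (Lum) to 15.03% (Col6a1), with a median of 8.03% and 8.14% when summed. Col1a1, a collagen of fibroblasts, stood at 1379 against 17524 CPM in stromal cells, and 92.5% of thinned members held a UMI. The part of free RNA and doublets in these levels was not tested. Ptprc, Adgre1, Cd3e and Cd79a of the immune list and Adipoq, Cidec, Lep and Cfd of the adipocyte list had 0 UMIs in the members. The 9 immune genes summed to 12.2 CPM and the 8 endothelial genes to 5.30 CPM.

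FGF pathway genes were read because the cultures had received FGFs. Of 7 ligands, receptors and co-receptors compared with the other kept cells, 2 were at least 4-fold lower and 0 higher (median -0.51). Both were ligands: Fgf2 stood at 29.0 CPM in members against 257 in the other kept cells, and Fgf7 at 6.26 against 71.4. Both were under 50 CPM in the members and could only be lower. They stood at 9.90% and 6.97% of their levels in stromal cells, where the stromal list had a median of 8.03%. The part of free RNA in these levels was not tested. The receptor Fgfr1 was at 129 against 273 CPM and Fgfr2 at 43.4 against 40.8. The co-receptor Sdc4 was at 466 against 129 CPM. Of 9 ERK feedback genes, none passed 4-fold in either direction (median -0.71, range -1.75 to 0.97). The phosphatase Dusp6 had the highest ratio of this list, at 108 against 55.2 CPM. Untreated and treated cells cannot be told apart in these values.

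Cycling transcripts were found in fewer members than stromal cells. Thinned, 45.2% of members (42.1 to 48.3%) held a UMI of at least 1 of 6 cycling genes (Ube2c, Birc5, Ccnb1, Cdk1, Top2a and Mki67), against 53.2% of Wfdc18/Lcn2-low cells (50.2 to 56.2%), 32.1% of Foxa1-set cells, 35.6% of Krt5 cells and 70.5% of stromal cells. Unthinned, 66.2% of members and 89.4% of stromal cells held one. Of 10 cycling genes compared, 1 was at least 4-fold lower (Rrm2) and 0 higher (median -1.06). Rrm2 stood at 37.6 CPM in the members, under the minimum, and could only be lower. For Ube2c and Mki67, 24.7% and 21.9% of the 31-letter words near the end of the transcript occur in another gene. Reads of both may therefore be shared.

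In the remaining lists few genes passed 4-fold. Of 12 hypoxia and glycolysis genes, 3 were at least 4-fold lower (Hk2, Bnip3 and Ndufa4l2; median -1.27), Bnip3 with reads that may be shared with another gene. All 3 were under 50 CPM in the members and could only be lower. Of 4 Notch genes, 1 was higher, the ligand Jag1 (median 0.35). The 1 adipocyte gene compared, Lpl, was lower, and at 16.4 CPM in the members it could only be lower. None passed 4-fold either way among 9 lipid synthesis genes (median -0.48), 8 cell-cycle inhibitors and p53 targets (-0.21), 6 interferon-stimulated genes (-0.03), 3 antigen presentation genes (1.03) and 2 genes of the EGF receptor family (-0.82).

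Against the other Epcam-positive cells, few genes stood out in the members. Of 3750 genes compared, 2 (0.0533%) were at least 4-fold higher and 96 (2.56%) at least 4-fold lower, with a median log2 ratio of 0.01. The higher ones were Wfdc18, at 2832 against 435 CPM, and the chemokine Ccl9, at 74.9 against 18.7 CPM, a log2 ratio of 2.00 (1.88 to 2.12). Ccl9 lay at the threshold, and its call was lost with a mean over cells, with thinned cells, with at least 10 UMIs of Wfdc18 and Lcn2 in a member, and at 200 CPM. Under the threshold followed Pla2g7, which breaks down platelet-activating factor (197 against 54.2 CPM), Cytip (75.8 against 22.2 CPM) and Sox10 (184 against 54.1 CPM). Wfdc2 stood at 432 against 150.4 CPM, a log2 ratio of 1.52 (1.48 to 1.57).

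The lower genes included most of the stromal list. Of 11 stromal genes, 10 were at least 4-fold lower (median -2.62), and of 9 mesenchymal transition genes 4 were (median -1.75). Pdgfra was 1 of the 10 through the rule, and 34.0% of the other Epcam-positive cells held it. The part of this condition in the lower stromal levels was not tested. Against the Wfdc18/Lcn2-low cells, which also lack Pdgfra, 0 of 6 stromal genes compared were at least 2-fold lower (median -0.21). Against the low-keratin cells, which lack Pdgfra as well, 1 of 7 was, namely Postn (median -0.85). Sprr1a, of the cornified envelope, stood at 25.4 CPM against 374, with 4357 in Foxa1-set cells, and the Wnt modulator Dkk2 at 5.16 against 54.9, with 443 in Foxa1-set cells. None of 14 junction genes (median 1.07) or 6 keratins (median 1.47) passed 4-fold.

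The Wfdc18/Lcn2-low cells were like the members in keratins and depth. Both sets passed the same threshold on Krt8 and Krt18, so likeness in these genes was partly set by the rule. Krt8 stood at 1145 and 1135 CPM, Krt18 at 1508 and 1485 CPM, and median UMIs were 12554 and 12876. Of 3530 genes compared, 24 (0.68%) were at least 2-fold higher in members and 7 (0.198%) at least 2-fold lower, with a median of -0.02. This comparison, at 2-fold, was added after values were seen.

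Beside Wfdc18 and Lcn2, which the rule used, Chil1 stood at 68.7 against 7.19 CPM (log2 ratio 3.26), the membrane peptidase Mme at 160.1 against 25.5 (2.65), and Igfbp5, which binds insulin-like growth factors, at 72.1 against 12.8 (2.50). Slc15a2 was at 50.5 against 12.0 CPM, the tetraspanin Tspan8 at 124 against 31.8, and Sox10 at 184 against 49.1. Mme, Chil1 and Sox10 were not particular to the members, since Krt5 cells held them too. Thinned, 53.99% of Krt5 cells held an Mme UMI and 23.9% a Chil1 UMI, against 39.6% and 14.96% of members. For Sox10 the order was reversed, with 43.6% of Krt5 cells and 55.3% of members. By list, at least 2-fold higher were 3 of 5 antimicrobial genes (Lcn2, Wfdc18 and Chil1; median 3.26), 2 of 6 luminal progenitor genes (Csn3 and Sox10; median 0.21) and 1 of 4 FGF genes (the decoy receptor Fgfrl1, 99.4 against 44.7 CPM; median 0.38). Of these, Lcn2 and Wfdc18 split the sets, and Chil1, Sox10 and Fgfrl1 were under 50 CPM in the Wfdc18/Lcn2-low cells and could only be higher, so the counts support nothing. None of 6 keratins (0.12), 14 junction genes (0.35) or 9 basal genes (-0.02) passed 2-fold. Set against the low-keratin cells instead, members were lower in Igfbp5, Tspan8 and Chil1 (log2 ratios -3.19, -1.48 and -1.62). Unthinned, 80.4% of low-keratin cells and 78.8% of members held a Sox10 UMI. Igfbp5 and Tspan8 were thus not particular to the members either.

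The lower genes were Hmga2, Dynap, Cxcl12, Mmp9, Emp3, Col5a3 and Pmp22. Of these, Dynap, Cxcl12, Emp3, Col5a3 and Pmp22 were under 50 CPM in the members and could only be lower. Hmga2, a chromatin protein of immature and mesenchymal cells, stood at 77.1 CPM in members, 267 in Wfdc18/Lcn2-low cells and 379.8 in stromal cells. The gelatinase Mmp9 stood at 163 CPM in members, 395 in Wfdc18/Lcn2-low cells and 9.01 in stromal cells. The stromal list summed to 8.14% of its stromal level in members and 10.3% in Wfdc18/Lcn2-low cells.

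Much of the Wfdc18 and Lcn2 RNA of the culture lay outside the members, in cells that failed only the keratin threshold. The members held 51.7% of all Wfdc18 UMIs and 28.9% of all Lcn2 UMIs of the kept iWAT cells, and the low-keratin cells held 29.6% and 43.6%. The low-keratin cells were shallower, with a median of 8976 UMIs against 12554, and a median of 12.3% of their UMIs was mitochondrial. A threshold on raw UMIs is met less often by shallow cells, and with all cells thinned to 5000 UMIs 475 cells met the rule. In CPM, Epcam stood at 1087 in members and 1037 in low-keratin cells, while Krt8 stood at 1145 and 148.

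Of 3692 genes compared, 44 (1.19%) were at least 2-fold higher in members and 43 (1.16%) at least 2-fold lower, with a median of -0.02, in a comparison added after values were seen. Krt8 and Krt18 set these cells apart by the rule, and they are 2 of the 6 keratins compared, all of which were higher (median 2.10 with them). Of those outside the rule, Krt17 stood at 297 against 59.8 CPM, Krt7 at 587 against 159, Krt14 at 394 against 139.5 and Krt19 at 114 against 43.0. Of 5 cycling genes, 3 were higher (Top2a, Cdk1 and Ube2c; median 1.07). Top2a and Cdk1 were under 50 CPM in the low-keratin cells and could only be higher, and reads of Ube2c may be shared with another gene. Top2a, which untangles DNA, stood at 84.7 against 40.2 CPM.

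Several secreted products were lower in members than in low-keratin cells. Igfbp5 had the lowest ratio, at 72.1 against 659 CPM (log2 ratio -3.19), and transferrin (Trf) stood at 47.2 against 185 CPM. Of 5 antimicrobial genes, 2 were at least 2-fold lower (median -0.74), Chil1 at 68.7 against 211 CPM and Lcn2 at 887 against 2334. Cp was at 1097 against 3045 CPM and the water channel Aqp5 at 33.01 against 101. Of 14 junction genes, 0 passed 2-fold (median 0.28). The stromal list summed to 15.9% of its stromal level in low-keratin cells, and the part of stromal RNA, depth and mitochondrial share in these differences was not tested.

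**Figure D3:**
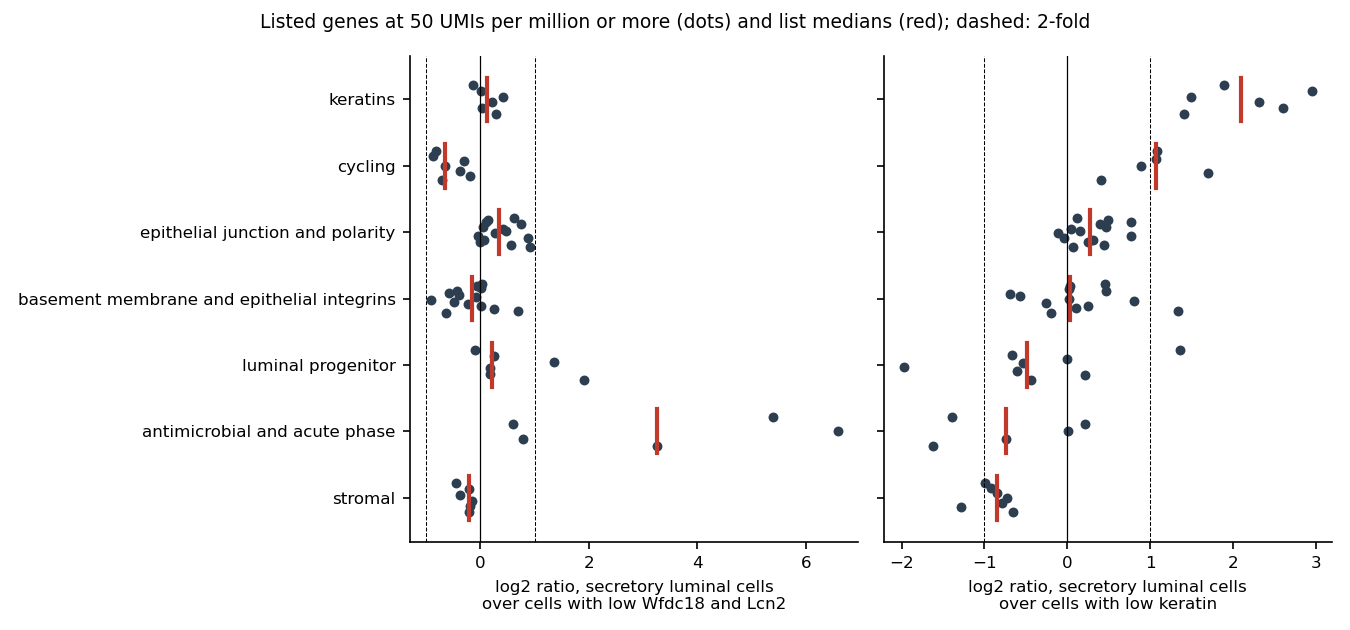
Log2 ratios of the secretory luminal cells over Wfdc18/Lcn2-low cells and over low-keratin cells, for listed genes at 50 CPM or more in either set, with list medians marked. Against Wfdc18/Lcn2-low cells the median is 0.12 for keratins and 3.26 for antimicrobial genes, and against low-keratin cells it is 2.10 and -0.74; the first pair of sets was split by Wfdc18 and Lcn2 and the other by Krt8 and Krt18, which are in these medians.

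Wfdc18 and Lcn2 counts varied between members. Thinned, the Fano factor (variance over mean, 1 for counting error alone) was 21.9 for Wfdc18 and 15.7 for Lcn2. Of the 2097 cells before the last condition, thinned, 508 held both transcripts, 537 held Wfdc18 alone, 183 held Lcn2 alone and 869 held neither. Lcn2 was found in 48.6% of the cells with Wfdc18 and in 17.4% of those without it. The correlation between both genes was 0.36 over the 2097 cells of this 1 library and -0.08 over the members, which a threshold on their sum selects.

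**Figure D4:**
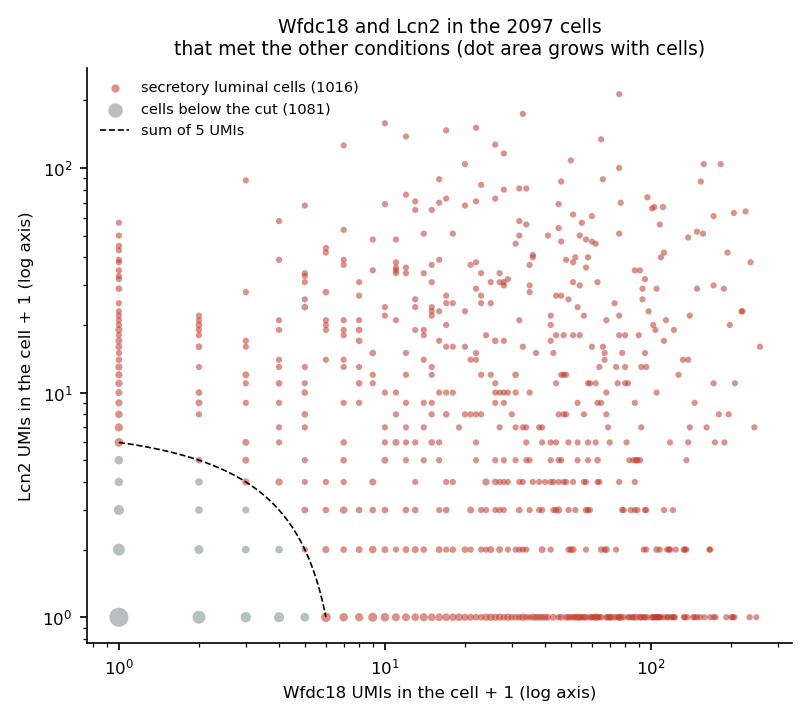
Wfdc18 and Lcn2 UMIs per cell in the 2097 cells that met the other conditions, on log axes. The 1016 secretory luminal cells reach 256 Wfdc18 and 212 Lcn2 UMIs, and the 1081 cells with a sum under 5 lie near the origin.

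Fano factors of this size were also found in other genes, but at other means. The mitochondrial transcript mt-Co1 (23.2) and Tmsb4x (16.8), a thymosin that binds actin, had Fano factors above that of Lcn2. Actb had 11.6, and all members held these genes. Their means were 174, 123 and 75.2 UMIs per thinned member, against 15.3 for Wfdc18 and 4.67 for Lcn2. At such unlike means, Fano factors do not compare the spread relative to the level. Reads of mt-Co1 and Actb may be shared with another gene. Igfbp5 (11.9) was found in 10.04% of thinned members and Mmp9 (12.4) in 16.9%, so few cells held them. Csn3 (11.7) was found in 72.7%, Cp (8.30) in 79.4% and Clu (8.14) in 99.8%. Col1a1 (23.2), Col1a2 (10.7) and Sparc (8.75), transcripts abundant in the stromal cells, were also high.

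Members were further grouped, after values were seen, by which transcript they held. With at least 5 UMIs of one and none of the other, 339 members held Wfdc18 alone and 81 held Lcn2 alone, while 324 held at least 5 of each and 272 lay between. Median UMIs in the first groups named were 12481, 13186 and 12787, and Scrublet doublets 3.83%, 2.47% and 1.54%.

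Sox10, Mme and Epb41l4a were named for their correlation with Wfdc18, the highest over the 2097 cells (0.43, 0.45 and 0.45), so their levels in the groups of members below show the same cells once more. Sox10 stood at 179 CPM in members with Wfdc18 alone, 226 in those with both and 44.0 in those with Lcn2 alone. Mme stood at 162, 193 and 16.7 CPM in the same order, and Epb41l4a, a protein of the cell cortex, at 430.3, 489 and 225. Within the members the correlations of Epb41l4a, Mme and Sox10 with Wfdc18 were 0.31, 0.33 and 0.24.

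Slpi and Cp were higher in the groups that held Lcn2. Slpi stood at 9.80 CPM in members with Wfdc18 alone, 176 in those with both and 503 in those with Lcn2 alone, and Cp at 340.1, 1841 and 1852. Wfdc2 stood at 306, 533 and 546 CPM, and Cebpb, a transcription factor of acute-phase genes, at 81.7, 192 and 247. Other genes were highest where both transcripts were held: Csn3 stood at 459.7, 1270.5 and 716 CPM and Chil1 at 3.12, 159 and 57.2. Over the 2097 cells Lcn2 correlated best with Cp (0.55) and Chil1 (0.47), and within the members these were 0.58 and 0.47. Slpi (0.36) and Csn3 (0.34) were among the highest over the 2097 cells as well. The points share 1 library and a fixed thinned total. The levels of Cp, Chil1, Slpi and Csn3 in the groups thus show the same cells once more.

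Krt8 was highest in members with Wfdc18 alone. It stood at 1397 CPM there, 971 in those with both and 793 in those with Lcn2 alone. Vim was lowest where both were held, at 1984, 1313 and 1794 CPM. The lowest correlations with Lcn2 over the 2097 cells were those of Lgals1 (-0.43), a galectin, and Vim (-0.37), and within the members these were -0.41 and -0.29. The Vim levels in the groups show the same cells once more.

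**Figure D5:**
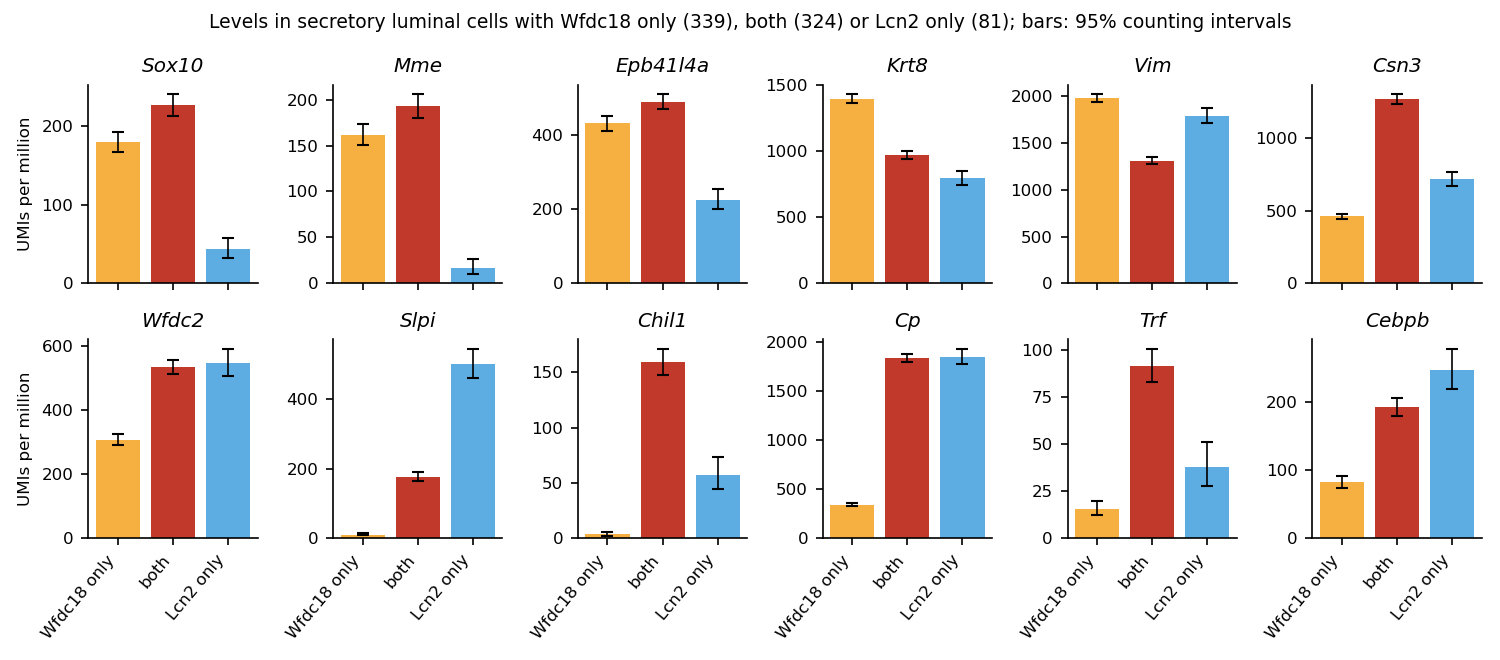
Levels of the drawn genes, in CPM with 95% counting intervals, in secretory luminal cells with Wfdc18 alone (339 cells), both transcripts (324) or Lcn2 alone (81). Sox10 is lowest with Lcn2 alone (44.0), Slpi is lowest with Wfdc18 alone (9.80), and Csn3 is highest with both (1270.5).

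In the iBAT library 0 of 28215 kept cells met the rule, and 3 counts, taken as the limit of a count of 0, come to 0.0106%, while 0 met the Epcam and keratin conditions together. An Epcam UMI was found in 111 iBAT cells, against 6333 iWAT cells. The libraries shared 8 barcodes, none of them in a member. With 1 library per depot, depot and library cannot be told apart.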

How the data were processed

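RNA of single cells was captured on the BD Rhapsody system, in 1 library each for iWAT and iBAT. The deposited values are raw UMI counts per gene and cell, which the authors made with the data pipeline of an outside genomics company. The submitters' processing notes name mm39 and Seurat 5.0.0, and the aligner version and annotation are not given in the sources used here. The labels name FGF8 and an age of 8 to 12 weeks, where the methods of the study name vehicle, FGF1 and FGF2 and a narrower age range, and the design text names FGF2 alone.

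From these counts, cells with 200 genes or fewer, 7500 or more, or 30% or more mitochondrial UMIs were left out. Members followed the stated rule. UMIs were summed over each set and scaled to 1000000. Genes at 50 CPM or more in either set were compared, and a ratio of 4-fold or more was called (2-fold for the neighbouring sets), with no test. A gene at 0 was set to 3 counts. Intervals are exact (Poisson for levels, conditional binomial for ratios, Clopper-Pearson for shares, 95%), and UMIs of 1 cell are not independent of each other. Shares with a UMI were computed after thinning each cell to 5000 UMIs, which left out 0 cells. Stromal shares used 4000 cells drawn at random. Scrublet, run in scanpy with an expected rate of 0.08, called 561 kept iWAT cells doublets, and all were kept. Reads shared between genes were checked by 31-letter words of the last 500 transcript bases, and 24 of 430 genes had at least 20% of them in another gene.

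Members and the 25 gene lists were chosen with earlier results of these data known. Named genes are those of the rule and Wfdc2, the 20 highest and 10 lowest ratios against the other kept cells, the 15 highest and 15 lowest against the other Epcam-positive cells, the genes of highest Fano factor, the genes most correlated with Wfdc18 and Lcn2, and genes of the lists. Some genes that these rules name are not reported here. The neighbouring sets, the groups of members and their genes were added after values were seen. Alternatives were other thresholds of the rule, cell filters, CPM minimums, weights of cells, thinning, doublet removal and other scalings (edgeR's TMM and the median of ratios). The scripts were tested on simulated data. Promoters came from GRCm39 with GENCODE canonical transcripts. Tools were python 3.11.15, numpy 2.4.6, scipy 1.17.1, pandas 2.3.3, scanpy 1.11.5, matplotlib 3.10.9, R 4.3.3 and edgeR 4.0.16.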

Additional observations from a re-analysis of the deposited data

Results flagged for a closer look

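The iBAT library entered none of the gene comparisons, and UMIs of the 6 marker genes were counted there because its signal lay above the 3 counts that a count of 0 allows. Its kept cells held 114 UMIs of Epcam, 34 of Krt8, 13 of Krt18, 122 of Wfdc18, 613 of Lcn2 and 30 of Wfdc2. The cause was not tested.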

How the results depend on the processing

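The number of members followed the thresholds: 839 (2.82% of kept cells) with 10 UMIs of Wfdc18 and Lcn2, 632 (2.12%) with 20 keratin UMIs, 1325 (4.45%) with 5 keratin UMIs (an alternative added after seeing the data) and 475 (1.60%) with cells thinned before the rule. Counts of genes followed the CPM minimum. Against the other kept cells, 414 were higher and 504 lower at 10 CPM, 48 and 72 at 200 CPM, and 8664 and 1684 with no minimum. Against the other Epcam-positive cells these were 5 and 253, 1 and 31, and 4261 and 1077, and the higher genes fell to 1, without Ccl9, with a mean over cells, thinned cells or 10 UMIs of Wfdc18 and Lcn2. Against the Wfdc18/Lcn2-low cells, where all alternatives were added after seeing the data, 77 were higher and 33 lower at 10 CPM and 7 and 2 at 200 CPM, and 11 were lower without doublets. Other alternatives stayed within 1.5 times the counts reported, among them the comparisons without members of 15% or more mitochondrial UMIs, which were added after seeing the data, and no alternative was run for the low-keratin cells. TMM and the median of ratios moved the log2 scale by at most 0.04. No replicate could be left out, since each depot is 1 library. No paired analysis was possible because each depot is 1 library and no result comes from a test. A gene under 3 UMIs in a set was not detectable at this depth.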
